A study of Mus musculus with 9 samples.

Results

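The genes described here encode the machinery that fuses, divides and proteolytically remodels mitochondria. They are Oma1, Yme1l1, Opa1, Mfn1, Mfn2, Dnm1l, Fis1, Mff, Phb and Phb2. They were chosen by name, and all 10 were found among the 15228 genes listed in the deposited table. Their mRNA levels were measured in retinal cells that had been enzymatically dissociated and sorted as retinal ganglion cells (RGCs), whose axons form the optic nerve. The sort kept cells with the surface protein Thy1 (CD90.2) and without CD48, CD15 and CD57. All mice were wild type. The Ctrl group was from normal retinas without injury. The ONC group was from retinas 3 d after optic nerve crush, a mechanical injury of the RGC axons, followed at once by an intraocular injection of PBS as vehicle. The TPEN group was from retinas 3 d after the same crush with an intraocular injection of TPEN at 100 μM, a membrane-permeable chelator of mobile zinc. Surgery was performed on mice aged 6 to 8 weeks, of both sexes. Neither an injection nor an age is stated for Ctrl. A difference of ONC or TPEN from Ctrl therefore cannot tell the crush apart from the injection. Each group had 3 libraries. How many mice each library came from is not stated, so the tests measure the spread between libraries, which may be technical.

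Mitochondria fuse when the mitofusins MFN1 and MFN2 join the outer membranes and the dynamin-like GTPase OPA1 joins the inner membranes, and they divide when the GTPase DRP1, encoded by Dnm1l, is recruited to the outer membrane by receptors such as MFF and FIS1. OPA1 is cut from long membrane-bound forms to short soluble forms by the inner-membrane metalloproteases OMA1 and YME1L. OMA1 is largely dormant until a mitochondrion is stressed, and it then also cuts DELE1, which relays the stress to the cytosol. Prohibitins, encoded by Phb and Phb2, form ring complexes in the inner membrane that influence the processing of OPA1. Mutations of human OPA1 cause dominant optic atrophy, a disease of RGCs, and mutations of MFN2 cause an inherited axonal neuropathy. The question put to the libraries was whether the transcripts of this machinery changed after nerve crush and whether chelation of zinc altered them. RNA levels measure neither the amount of a protein nor its cleavage.

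The levels are reads normalized to exon length and to the total reads of the library (RPKM). The libraries held 20077226 to 23109754 reads in Ctrl, 22967138 to 22986065 in ONC and 19946993 to 22217283 in TPEN. The sorted cells carried strong rod signal, with Gnat1, the gene of rod transducin, at 2 in the order of all listed genes by mean RPKM. Of the RGC markers, Nefl was at 153 in that order, Nefm at 847, Nefh at 1811 and Sncg at 2289. Thy1, the surface protein of the sort, was at 6283 and Isl1 at 10436. Rbpms was at 13805, Slc17a6 at 14020 and Pou4f1 at 14252, and Pou4f2 and Pou4f3 were not among the listed genes. The summed level of 5 rod markers was 16770 to 17580 RPKM in Ctrl, 14660 to 14890 in ONC and 15770 to 15900 in TPEN. That of 7 microglia and macrophage markers was 2.722 to 3.575 RPKM in Ctrl, 40.85 to 42.81 in ONC and 15.68 to 15.99 in TPEN. Of the other marker sums, that of 5 cone markers was 102.1 to 107.2, 88.52 to 96.3 and 155.6 to 158.4 RPKM in the same groups, and that of 5 Müller glia markers was 477.9 to 496.1, 506.5 to 518.8 and 387.2 to 399.4 RPKM. The levels below are therefore averages over a mixed retinal population, in which fewer cells of a type and less RNA per cell cannot be told apart. Whether these shifts took part in any level below was not tested.

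Mfn2 had the highest level of the 10 (26.0 to 28.7 RPKM over the 9 libraries, median 27.5), at 1703 in the order of all listed genes. Dnm1l followed at 20.4 to 24.1 RPKM, Mfn1 at 13.3 to 14.6 and Opa1 at 10.9 to 12.7. The levels of Fis1 (8.56 to 11.3 RPKM), Phb (7.51 to 9.78) and Phb2 (7.58 to 8.91) had overlapping ranges, with Fis1 above Phb in 8 of 9 libraries and Phb above Phb2 in 5 of 9. The range of Opa1 also overlapped with that of Fis1. Yme1l1 lay lower, at 5.56 to 6.23 RPKM, and Oma1 (3.14 to 4.59 RPKM) overlapped with Mff (2.96 to 3.47 RPKM) at the bottom. Oma1 was at 7844 and Mff at 8535 in the order of all listed genes. In each of the 9 libraries, Mfn2 was above Dnm1l, Dnm1l above Mfn1, Mfn1 above Opa1, Opa1 above Fis1, Phb2 above Yme1l1, and Yme1l1 above Oma1. The mRNA of the outer-membrane mitofusins thus exceeded that of the inner-membrane protease Oma1 in every group. RPKM divides by all annotated exons of a gene together, so a gene with long exons that are little used is listed low.

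**Figure D1:**
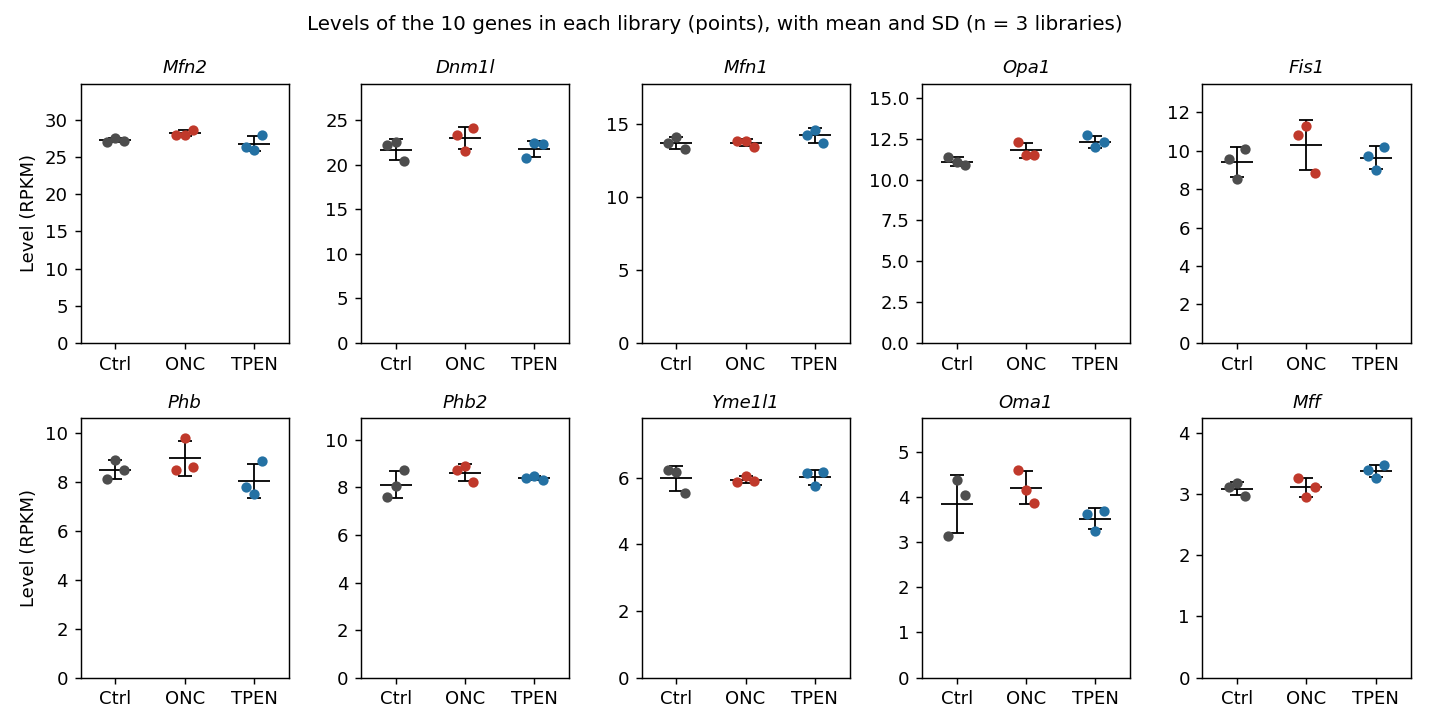
Each panel shows 1 gene, with its level in RPKM on the y axis, which starts at 0, and the groups Ctrl, ONC and TPEN on the x axis. Points are libraries, and horizontal marks with bars are the mean and SD of 3 libraries. The 3 groups sit at similar heights in all 10 panels, and the points of Oma1 are the most scattered for their level, from 3.14 to 4.59 RPKM.

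Oma1, the gene of the stress-activated metalloprotease, lies on the plus strand of chromosome 4 (103313812 to 103371868, GRCm38) with 2144 bases of exon. Its level was 3.14, 4.38 and 4.04 RPKM in the Ctrl libraries, 4.59, 4.16 and 3.86 RPKM in the ONC libraries, and 3.62, 3.25 and 3.69 RPKM in the TPEN libraries. The Ctrl libraries spanned almost the whole range, the ONC libraries were within the upper part of it, and every TPEN library was lower than every ONC library. The mean was 3.85 ± 0.640 RPKM in Ctrl, 4.2 ± 0.365 in ONC and 3.52 ± 0.235 in TPEN (SD, n = 3 libraries). In ONC/Ctrl, the log2 fold change of Oma1 was 0.13 (SE, the standard error, 0.12, 95% interval -0.14 to 0.41, limma adjusted p = 0.515), which is smaller than the spread between libraries. This difference rested on Ctrl replicate 1, the lowest of all 9 libraries, and without it the log2 fold change was -0.005. In TPEN/ONC, the log2 fold change of Oma1 was -0.25 (SE 0.12, 95% interval -0.52 to 0.03, limma adjusted p = 0.277), a mean 16.2% below that of ONC, which did not pass the threshold. It was the largest difference of the 10 genes in this comparison, and its limma adjusted p lay between 0.155 and 0.537 in the alternatives, apart from the test against a 1.5-fold change. In TPEN/Ctrl, Oma1 differed by -0.12 on the log2 scale (SE 0.12, 95% interval -0.39 to 0.16, limma adjusted p = 0.605). Oma1 had only 151 to 226 reads in a library. Counting error alone gives a coefficient of variation of 7.44% at the mean of the Ctrl libraries, against 16.6% observed between them.

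Yme1l1, the gene of the ATP-dependent protease that cuts OPA1 under basal conditions, lies on chromosome 2 (23156369 to 23199260, plus strand). Its level was 6.23, 6.18 and 5.56 RPKM in Ctrl, 5.88, 6.06 and 5.90 RPKM in ONC, and 6.14, 5.76 and 6.18 RPKM in TPEN. The 3 groups overlapped fully, and the lowest library was Ctrl replicate 3. Its log2 fold change was -0.01 in ONC/Ctrl (SE 0.062, 95% interval -0.15 to 0.13, limma adjusted p = 0.945) and 0.02 in TPEN/ONC (SE 0.062, 95% interval -0.12 to 0.16, limma adjusted p = 0.909). With 894 to 1143 reads in a library, Yme1l1 was measured more closely than Oma1, and its intervals in the 3 comparisons lay between a 0.903-fold and a 1.11-fold level.

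Opa1, the inner-membrane fusion GTPase and the substrate of both proteases, lies on chromosome 16 (29579334 to 29654884, plus strand). Its level was 11.4, 11.1 and 10.9 RPKM in Ctrl, 12.3, 11.5 and 11.5 RPKM in ONC, and 12.7, 12 and 12.3 RPKM in TPEN. No Ctrl library reached the lowest ONC or TPEN library, while ONC and TPEN overlapped. The mean was 11.1 ± 0.266 RPKM in Ctrl, 11.8 ± 0.456 in ONC and 12.3 ± 0.343 in TPEN (SD, n = 3). In TPEN/Ctrl, the log2 fold change of Opa1 was 0.15 (SE 0.046, 95% interval 0.04 to 0.25), the only one of the 30 tests of these genes with an unadjusted limma p under 0.05. Its limma adjusted p of 0.064 did not pass the threshold, and it was 0.0429 with voom on the whole reads. In ONC/Ctrl, the log2 fold change was 0.08 (SE 0.046, 95% interval -0.02 to 0.18, limma adjusted p = 0.266), and in TPEN/ONC it was 0.07 (SE 0.046, 95% interval -0.04 to 0.17, limma adjusted p = 0.444).

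The mitofusin genes Mfn1, on chromosome 3 (32529465 to 32579239, plus strand), and Mfn2, on chromosome 4 (147873599 to 147904704, minus strand), varied little. Mfn1 was at 13.7, 14.1 and 13.3 RPKM in Ctrl, 13.8, 13.8 and 13.4 RPKM in ONC, and 14.2, 14.6 and 13.7 RPKM in TPEN. Its groups overlapped in every comparison. Mfn2 was at 27.0, 27.5 and 27.2 RPKM in Ctrl, 27.9, 28.0 and 28.7 RPKM in ONC, and 26.4, 26.0 and 28.0 RPKM in TPEN. For Mfn2, the ONC libraries lay above the Ctrl libraries without overlap, the closest being 27.9 RPKM in ONC and 27.5 in Ctrl. The ONC mean was 3.30% above the Ctrl mean, and the third TPEN library reached the ONC level. The log2 fold change of Mfn2 was 0.05 in ONC/Ctrl (SE 0.035, 95% interval -0.03 to 0.13, limma adjusted p = 0.414). In TPEN/ONC, it was -0.07 (SE 0.035, 95% interval -0.15 to 0.01, limma adjusted p = 0.270). That of Mfn1 was 0.00 in ONC/Ctrl (SE 0.043, 95% interval -0.10 to 0.10, limma adjusted p = 0.994) and 0.05 in TPEN/ONC (SE 0.043, 95% interval -0.05 to 0.15, limma adjusted p = 0.549). These were among the best measured of the 10 genes, with 1632 to 1990 reads for Mfn1 and 2737 to 3418 reads for Mfn2.

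Among the fission genes, Dnm1l, the gene of the constricting GTPase DRP1, lies on chromosome 16 (16312235 to 16359030, minus strand). Its level was 22.2, 22.6 and 20.4 RPKM in Ctrl, 23.3, 21.6 and 24.1 RPKM in ONC, and 20.8, 22.5 and 22.3 RPKM in TPEN. All groups of Dnm1l overlapped, with log2 fold changes of 0.08 in ONC/Ctrl and -0.07 in TPEN/ONC (SE 0.056, limma adjusted p = 0.359 and 0.492). Fis1, the gene of an outer-membrane adaptor, lies on chromosome 5 (136953275 to 136966234, plus strand) and was at 9.60, 8.56 and 10.1 RPKM in Ctrl, 10.8, 11.3 and 8.84 RPKM in ONC, and 9.75, 8.98 and 10.2 RPKM in TPEN. Within ONC, the third library of Fis1 was below 2 of the 3 Ctrl libraries, and the log2 fold change in ONC/Ctrl moved between 0.059 and 0.234 when single libraries were left out (0.13 with all libraries, SE 0.098, limma adjusted p = 0.417).

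Mff, the gene of the main DRP1 receptor, lies on chromosome 1 (82724890 to 82752394, plus strand). It was at 3.11, 3.18 and 2.97 RPKM in Ctrl, 3.26, 2.96 and 3.11 RPKM in ONC, and 3.39, 3.27 and 3.47 RPKM in TPEN. Every TPEN library was higher than every ONC and every Ctrl library, but narrowly, with the closest at 3.27 RPKM in TPEN and 3.26 in ONC. The mean of TPEN was 8.69% above that of ONC and 9.50% above that of Ctrl. The log2 fold change of Mff was 0.12 in TPEN/ONC (SE 0.071, 95% interval -0.04 to 0.28, limma adjusted p = 0.387) and 0.13 in TPEN/Ctrl (SE 0.071, 95% interval -0.03 to 0.29, limma adjusted p = 0.295). Mff shares 195 exon bases with C430014B12Rik on the opposite strand, which is 2% of its exons. No source states that strand was used in counting.

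The prohibitin genes are Phb, on chromosome 11 (95666957 to 95680773, plus strand), and Phb2, on chromosome 6 (124712336 to 124716950, plus strand). Phb was at 8.14, 8.90 and 8.49 RPKM in Ctrl, 8.48, 9.78 and 8.61 RPKM in ONC, and 7.78, 7.51 and 8.85 RPKM in TPEN. The third TPEN library lay among the ONC libraries and the other two below them, with a log2 fold change of -0.15 in TPEN/ONC (SE 0.078, 95% interval -0.33 to 0.02, limma adjusted p = 0.289). Phb2 was at 7.58, 8.07 and 8.71 RPKM in Ctrl, 8.72, 8.91 and 8.21 RPKM in ONC, and 8.41, 8.46 and 8.31 RPKM in TPEN. Its groups overlapped, with log2 fold changes of 0.09 in ONC/Ctrl and -0.04 in TPEN/ONC (SE 0.060, limma adjusted p = 0.370 and 0.782). Phb2 shares 141 exon bases, 3.79% of its exons, with Gm15884 on the opposite strand.

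In limma on log2(RPKM + 0.1), 0 of the 10 genes had an adjusted p under 0.05 in ONC/Ctrl, where 18.7% of the 13566 genes tested did. In TPEN/ONC, the count was again 0 of 10, against 7.39% of all genes tested, and in TPEN/Ctrl it was 0 of 10, against 13.4%. At an unadjusted limma p under 0.05, the counts were 0 in ONC/Ctrl (31.6% of all genes tested), 0 in TPEN/ONC (22%) and 1 in TPEN/Ctrl (27.2%), and voom called 0 (23.7% of all genes tested), 0 (12.2%) and 1 (17.7%). All 10 genes passed the filter of a mean of at least 0.5 RPKM. The median log2 fold change of the 10 genes was 0.076 in ONC/Ctrl, -0.054 in TPEN/ONC and 0.023 in TPEN/Ctrl, beside 0.017, -0.011 and 0.012 for all genes tested. Taken without sign, it was 0.076, 0.073 and 0.050, beside 0.132, 0.103 and 0.116 for all genes tested.

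Groups that did not overlap were found for 2 of the 10 genes in ONC/Ctrl (Opa1 and Mfn2, both higher), against 36.5% of all genes tested, 20.7% being higher and 15.8% lower. In TPEN/ONC there were also 2, Oma1 lower and Mff higher, against 28% of all genes tested, 12.5% higher and 15.6% lower. In TPEN/Ctrl there were 2, Opa1 and Mff, both higher, against 31.3%, of which 18.1% were higher and 13.3% lower. ONC/Ctrl and TPEN/ONC share the ONC libraries. In ONC/Ctrl, 9 of the 10 genes had a log2 fold change above 0, and in TPEN/ONC, 6 had one below 0, with none of these past the threshold. The directions of Mfn1 and Mff in ONC/Ctrl turned with quantile normalization and with voom, as did those of Yme1l1 and Dnm1l in TPEN/Ctrl.

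The size of change that the libraries could show is given by the intervals. In all 30 tests, 10 genes in 3 comparisons, the 95% interval of the log2 fold change lay within 1.5-fold in either direction. These intervals are for single genes and are not adjusted for the number of tests. They apply to the average over the mixed population, and a change confined to a single cell type could be larger. The widest was that of Oma1, whose interval in TPEN/ONC ran from a 0.697-fold to a 1.02-fold level. The interval of Oma1 in TPEN/ONC passed 1.5-fold when ONC replicate 3, TPEN replicate 1 or TPEN replicate 3 was left out. The 95% intervals of Mfn1 and Mfn2 stayed between a 0.9-fold and a 1.11-fold level in all 3 comparisons. Between libraries of a group, the coefficient of variation of the 10 genes was 0.901% to 16.6% (median 4.22%), and the counting error of their reads was 1.72% to 8.01% (median 3.43%).

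**Figure D2:**
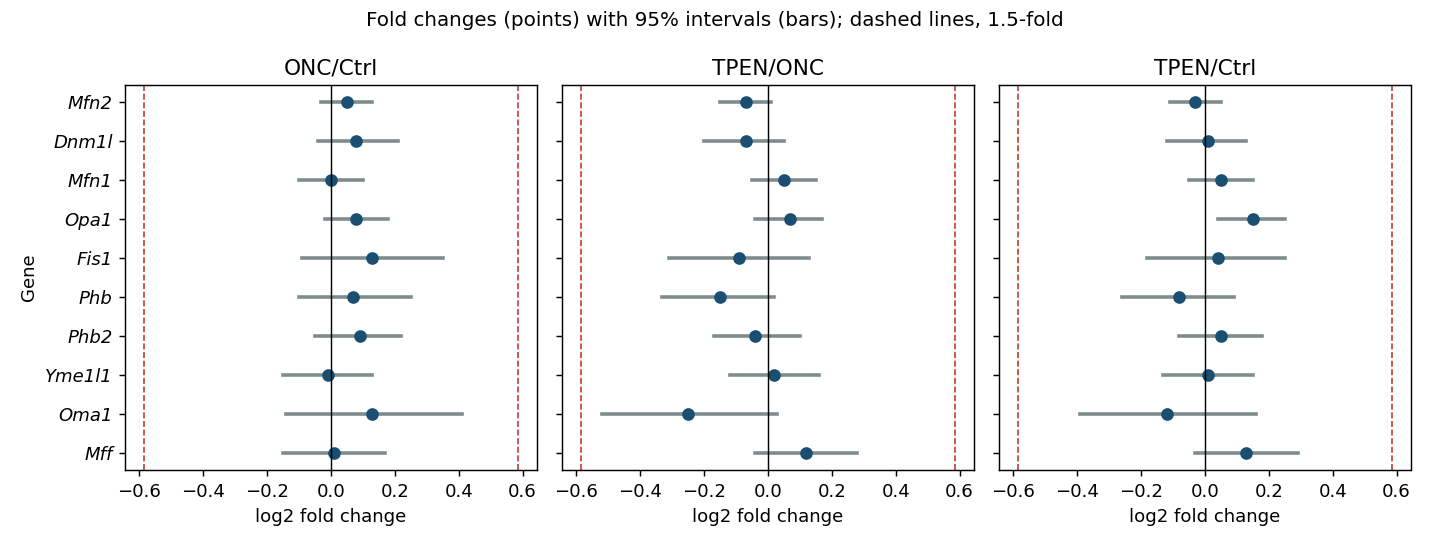
Each panel shows 1 comparison, with the log2 fold change on the x axis and the 10 genes on the y axis from the highest to the lowest mean level. Points are limma estimates, bars are 95% intervals, and dashed lines mark 1.5-fold. All 30 bars lie between the dashed lines, and 29 of them cross 0, the exception being Opa1 in TPEN/Ctrl.

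The balance of opposing or partner genes was compared by their ratio within each library, which does not depend on the scaling of the library. The ratio of Oma1 to Opa1, protease to substrate, was 0.275, 0.394 and 0.371 in Ctrl, 0.373, 0.361 and 0.335 in ONC, and 0.285, 0.271 and 0.299 in TPEN. All TPEN libraries were below all ONC libraries, and Ctrl replicate 1 lay among the TPEN libraries. Over the 3 groups the exact permutation test gave p = 0.193 (280 distinct arrangements, smallest possible p = 0.00357), and 0.321 after adjustment over the 5 ratios tested. Leaving out each library in turn, the exact permutation p ran from 0.0107 (without Ctrl replicate 1) to 0.311 (without TPEN replicate 2), before any adjustment. The ratio of Oma1 to Yme1l1 was 0.647 ± 0.124 in Ctrl, 0.707 ± 0.0657 in ONC and 0.584 ± 0.0172 in TPEN (SD, n = 3, exact permutation p = 0.264, adjusted 0.329). Its exact permutation p ran from 0.0357 (without Ctrl replicate 1) to 0.514 (without ONC replicate 1), before any adjustment.

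The ratio of Dnm1l to Opa1, division to inner-membrane fusion, was 1.95 ± 0.0786 in Ctrl, 1.95 ± 0.12 in ONC and 1.77 ± 0.121 in TPEN (SD, n = 3, exact permutation p = 0.118, adjusted 0.321). Mfn2 mRNA was about as far above Mfn1 mRNA in each group, with ratios of 1.99 ± 0.0482 in Ctrl, 2.06 ± 0.0674 in ONC and 1.89 ± 0.139 in TPEN (SD, n = 3, exact permutation p = 0.164, adjusted 0.321). Leaving out each library in turn, that exact permutation p ran from 0.0107 to 0.436, before any adjustment. It was lowest without TPEN replicate 3, whose ratio of 2.05 was within the range of the other groups, and highest without TPEN replicate 2. The prohibitin pair stayed near parity, with a ratio of Phb2 to Phb of 0.954 ± 0.0632 in Ctrl, 0.964 ± 0.0589 in ONC and 1.05 ± 0.0981 in TPEN (SD, n = 3, exact permutation p = 0.329, adjusted 0.329).

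**Figure D3:**
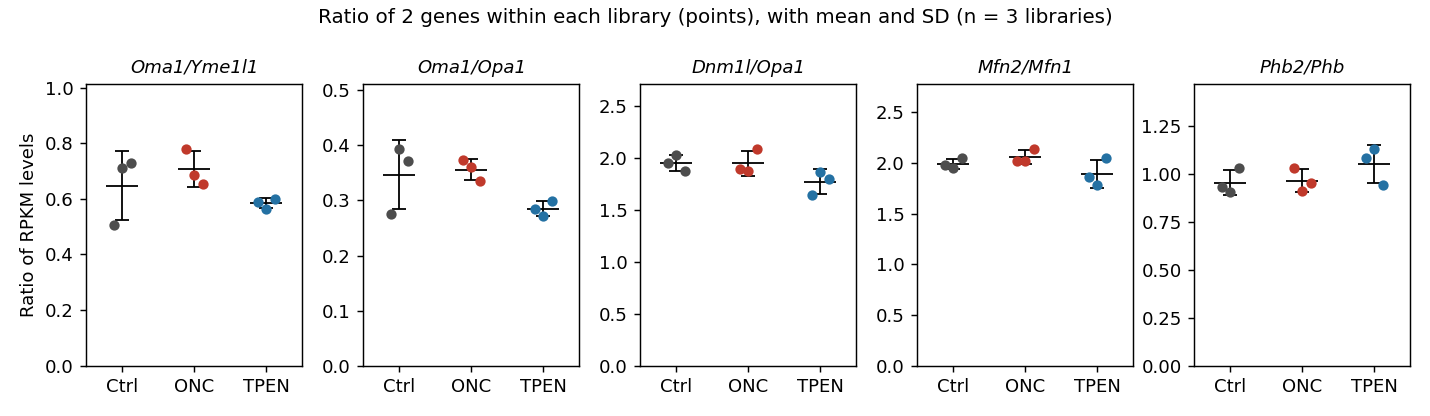
Each panel shows the ratio of the RPKM levels of 2 genes within a library on the y axis, which starts at 0, and the groups on the x axis. Points are libraries, with the mean and SD of 3 libraries. In the Oma1/Opa1 panel the TPEN points (0.271 to 0.299) lie below all ONC points (0.335 to 0.373), with Ctrl spread from 0.275 to 0.394.

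The surrounding machinery was followed in 7 lists of other genes of mitochondrial dynamics and quality control. They held 84 genes, of which 80 were listed and 79 tested. The lists were written with earlier results of these data known, so counts within a list are descriptions. In ONC/Ctrl, 9 of the 79 were higher and 5 lower at a limma adjusted p under 0.05, which is 17.7% of them, beside 18.7% of all genes tested (11.7% higher and 6.97% lower). In TPEN/ONC, 1 was higher and 8 were lower, 11.4% beside 7.39% of all genes tested (3.24% higher and 4.14% lower). This TPEN/ONC count of 9 fell to 5 with quantile normalization and without ONC replicate 1, 2 or 3 or TPEN replicate 2. In TPEN/Ctrl, 6 were higher and 5 lower, 13.9% beside 13.4% (8.36% higher and 5.01% lower). With quantile normalization, the share of higher genes among all genes called moved from 62.7% to 46.9% in ONC/Ctrl, from 43.9% to 53.9% in TPEN/ONC and from 62.5% to 52% in TPEN/Ctrl.

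In ONC/Ctrl, 11.7% of all genes tested rose. Among 15 other mitochondrial proteases and peptidases, Afg3l2 alone did. It encodes a subunit of the m-AAA protease, a relative of YME1L that faces the matrix, and its level was 17.0 ± 1.10 RPKM in Ctrl, 21.4 ± 0.791 in ONC and 18.9 ± 0.838 in TPEN (SD, n = 3). In ONC/Ctrl, the log2 fold change of Afg3l2 was 0.33 (SE 0.055, limma adjusted p = 0.00257). In TPEN/ONC, Lonp1, the gene of the matrix protease LON, had a log2 fold change of -0.19 (SE 0.043, limma adjusted p = 0.0277) and Spg7, the partner of AFG3L2 in the m-AAA protease, -0.15 (SE 0.037, limma adjusted p = 0.042). The calls of Lonp1 and Spg7 were lost in 7 and 9 of 16 alternatives, with limma adjusted p up to 0.0976 and 0.129. Among these were quantile normalization and leaving out any ONC library, TPEN replicate 2 or TPEN replicate 3, and for Spg7 also TPEN replicate 1 or Ctrl replicate 1.

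Of 15 other fusion and fission factors tested, 2 fell in ONC/Ctrl and 0 passed the threshold in TPEN/ONC. Of all genes tested, 6.97% fell in ONC/Ctrl and 7.39% passed it in TPEN/ONC. Mtfp1, the gene of an inner-membrane protein that promotes fission, was at 11 ± 0.292 RPKM in Ctrl, 9.17 ± 0.430 in ONC and 9.18 ± 0.564 in TPEN (SD, n = 3), with a log2 fold change of -0.27 in ONC/Ctrl (SE 0.058, limma adjusted p = 0.0104). Mtfr1, the gene of a fission regulator, was at 15.7 ± 0.532, 13.4 ± 0.178 and 13.5 ± 0.691 RPKM in the same groups (SD, n = 3), with a log2 fold change of -0.22 in ONC/Ctrl (SE 0.047, limma adjusted p = 0.00943). Both were thus at about the same mean in TPEN as in ONC. None of the 11 genes of the MICOS complex and cristae passed the limma threshold in any comparison. Of all genes tested, 18.7% passed it in ONC/Ctrl, 7.39% in TPEN/ONC and 13.4% in TPEN/Ctrl. Of 8 cardiolipin genes tested, Taz, the gene of the cardiolipin acyltransferase tafazzin, fell in ONC/Ctrl (log2 fold change -0.24, SE 0.070, limma adjusted p = 0.0437), a call lost in 10 of 16 alternatives.

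**Figure D4:**
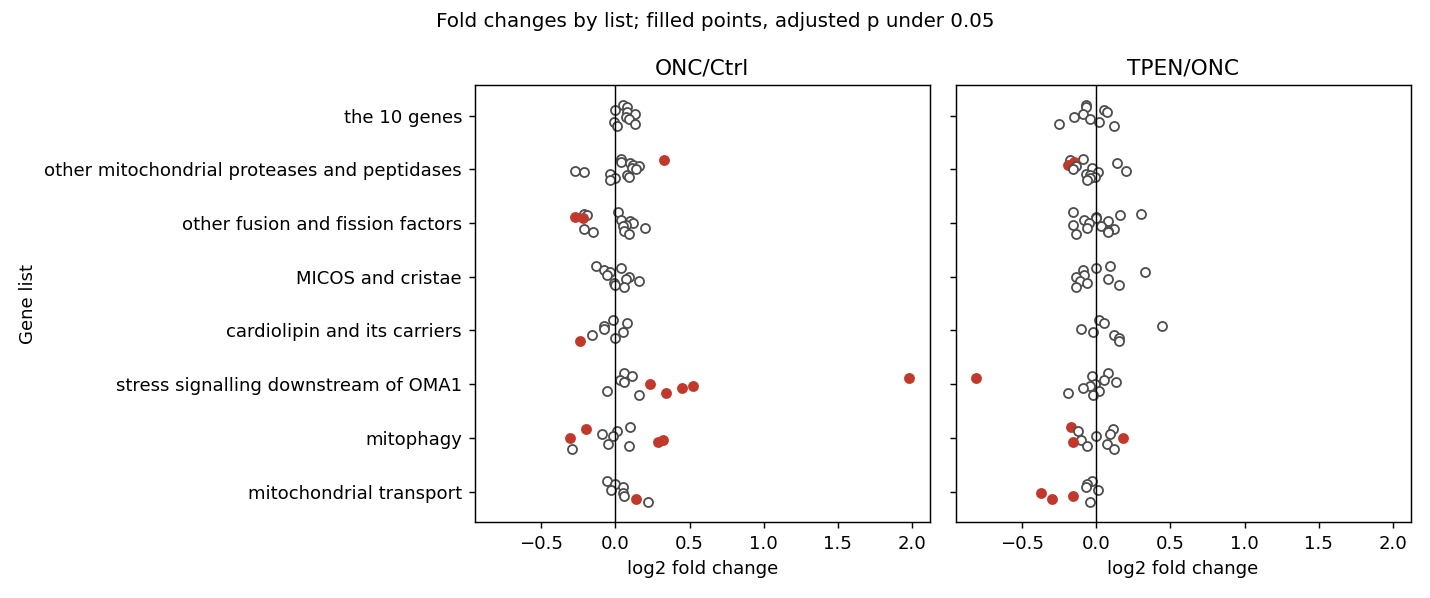
Each row of the y axis is a gene list, the first being the 10 genes, and the x axis is the log2 fold change in ONC/Ctrl (left) and TPEN/ONC (right). Points are genes, filled where the limma adjusted p was under 0.05. The 10 genes lie between -0.25 and 0.13 with no filled point, and the farthest point is Eif2ak2 at 1.98 in ONC/Ctrl and -0.81 in TPEN/ONC.

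Of 11 tested genes of stress signalling that OMA1 can feed into, 5 rose in ONC/Ctrl and 1 fell in TPEN/ONC. Of all genes tested, 11.7% rose in ONC/Ctrl and 4.14% fell in TPEN/ONC. Other stresses reach the same genes, and Dele1 was not on the list. Whether OMA1 took part in these changes was not tested. Ddit3, the gene of the transcription factor CHOP, rose from 50.8 ± 1.60 RPKM in Ctrl to 69.7 ± 3.92 in ONC and was at 65.3 ± 2.28 in TPEN (SD, n = 3, log2 fold change 0.45 in ONC/Ctrl, SE 0.046, limma adjusted p = 9.5e-05). The farthest gene of this list was Eif2ak2, the gene of the kinase PKR, at 1.98 in ONC/Ctrl and -0.81 in TPEN/ONC on the log2 scale. The summed microglia and macrophage markers moved in the same order, lowest in Ctrl and highest in ONC, and their part in this result was not tested.

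Mitophagy, the removal of damaged mitochondria, was represented by 11 tested genes, of which 2 rose and 2 fell in ONC/Ctrl. Of all genes tested, 11.7% rose and 6.97% fell in ONC/Ctrl. In TPEN/ONC, 1 of the 11 rose and 2 fell, beside 3.24% and 4.14% of all genes tested. Optn, the gene of the mitophagy receptor optineurin, fell from 285 ± 3.87 RPKM in Ctrl to 229 ± 4.2 in ONC and was at 259 ± 3.13 in TPEN (SD, n = 3). On the log2 scale, Optn differed by -0.31 in ONC/Ctrl and 0.18 in TPEN/ONC (SE 0.024, limma adjusted p = 1.4e-05 and 0.00232). The rod markers moved in the same order, lowest in ONC and highest in Ctrl, and their part in this result was not tested. Tax1bp1, the gene of another autophagy receptor, went the other way, with 123 ± 4.01 RPKM in Ctrl, 151 ± 0.771 in ONC and 135 ± 2.10 in TPEN (SD, n = 3, log2 fold change 0.29 and -0.16, SE 0.028, limma adjusted p = 7.3e-05 and 0.00909). Sqstm1, the gene of the receptor p62, rose in ONC/Ctrl (log2 fold change 0.32, SE 0.041, limma adjusted p = 5.0e-04). Sqstm1 shares 17.3% of its exon bases with a listed gene on the opposite strand. Pink1 had a log2 fold change of -0.17 in TPEN/ONC (SE 0.044, limma adjusted p = 0.0464), a call lost in 9 of 16 alternatives.

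Of 8 genes that move or anchor mitochondria in axons and dendrites, 3 fell in TPEN/ONC, where 4.14% of all genes tested did. All 3 were heavy chains of kinesin 1. In ONC/Ctrl, 1 of the 8 rose, beside 11.7% of all genes tested. It was Kif5c (log2 fold change 0.14, SE 0.036, limma adjusted p = 0.0248), a call lost in 6 of 16 alternatives. Among these were leaving out any Ctrl library or ONC replicate 2 and quantile normalization. Kif5a, a neuronal form, was at 76.1 ± 0.825 RPKM in Ctrl, 78.8 ± 1.55 in ONC and 61.1 ± 0.829 in TPEN (SD, n = 3), with a log2 fold change of -0.37 in TPEN/ONC (SE 0.026, limma adjusted p = 4.4e-05). Kif5c was at 29.3 ± 0.148, 32.3 ± 0.964 and 26.2 ± 0.867 RPKM (SD, n = 3), with a log2 fold change of -0.30 in TPEN/ONC (SE 0.036, limma adjusted p = 0.00135). Kif5b had a log2 fold change of -0.16 (SE 0.034, limma adjusted p = 0.0185), which missed the threshold in 7 of 16 alternatives, among them quantile normalization (limma adjusted p = 0.0793) and leaving out any ONC library, TPEN replicate 1 or TPEN replicate 2. The summed level of the 9 listed RGC markers, most of it Nefl, was 360.2 to 369.9 RPKM in Ctrl, 368.4 to 390.0 in ONC and 286.8 to 301.0 in TPEN, and the Müller glia markers were also lowest in TPEN. The part of either in the decrease of Kif5a and Kif5c was not tested.

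Across the 9 libraries, the genes whose log2 level was most like that of Oma1, in a search of 6832 genes whose mean reached 5 RPKM, were Btg1, Psmb6, Gm17231, Zfp651 and Cir1, with Pearson correlations from 0.877 to 0.913. The 9 points share library depth and group, and the ranking is a description. The 5 genes share the group order of Oma1 largely because they were selected by correlation with it. Their means were highest in ONC and lowest in TPEN, with Btg1 at 6.99, 7.40 and 6.79 RPKM in Ctrl, ONC and TPEN.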

How the data were processed

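Cells were sorted from mouse retinas by flow cytometry, and mRNA libraries were made with a stranded kit that adds molecular identifiers. Reads were trimmed with Trimmomatic 0.36 according to the submitters' processing notes and mapped by the authors to GRCm38/mm10 with STAR. The counting program and the annotation are not given in the sources used here, nor whether identifiers were collapsed. The authors deposited RPKM values per gene and library, normalized for exon length and library total. The exon length of each gene, the other deposited column used, is the union of its listed exons in bases. The table also holds log fold changes, p-values and FDR values of the authors' own comparisons, which were not used.

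The RPKM values times exon length were whole multiples of one step per library (100% of values, within 0.001 of a read), which gave the reads and totals. Intervals from reads cover counting error only. A linear model of log2(RPKM + 0.1) with 1 term per group was run on all 9 libraries in limma 3.58.1 (R 4.3.3), letting the variance follow the mean level. It covered the 13566 genes whose mean reached 0.5 RPKM, with Benjamini-Hochberg adjustment across them. A gene was called at an adjusted p under 0.05. Fold changes on this scale understate those of low genes. The fit was tested on simulated data. Ratios were tested over the 3 groups by exact permutation of group labels, on the variation between group means in either direction. Other steps ran in Python 3.11.15 (scipy 1.17.1, pandas 2.3.3, numpy 2.4.6, with figures from matplotlib 3.10.9).

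All 10 genes were named. In each of the 7 other lists, up to 3 called genes with the largest log2 fold change per comparison could be named, and the 5 genes most like Oma1 by Pearson correlation were named. The members and lists were chosen with earlier results of these data known. The alternatives were another pseudocount (1 RPKM), other filters, quantile normalization, only the 6 libraries compared, the replicate number as a block, voom on whole reads, a test against a 1.5-fold change and leaving out each library. Pairs of libraries within a group differed by 2.30 to 5.32 times the chi-square expected from sampling, so none was treated as the same library deposited again. This does not show whether they came from separate mice.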

Additional observations from a re-analysis of the deposited data

How the results depend on the processing

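Over the 17 alternatives, 0 of the 10 genes passed an adjusted p under 0.05 in ONC/Ctrl and TPEN/ONC, and in TPEN/Ctrl 1 gene, Opa1, passed with voom (log2 fold change 0.134, limma adjusted p = 0.0429) and 0 in the other alternatives. Signs turned for the following genes. Quantile normalization gave -0.049 for Mfn1 and -0.030 for Mff in ONC/Ctrl and -0.003 for Yme1l1 and -0.010 for Dnm1l in TPEN/Ctrl. With voom, these values were -0.021, -0.012, -0.009 and -0.007. Leaving out single libraries, log2 fold changes in ONC/Ctrl ranged from -0.005 to 0.228 for Oma1, -0.060 to 0.021 for Yme1l1, -0.019 to 0.022 for Mfn1 and -0.024 to 0.044 for Mff. That of Yme1l1 in TPEN/ONC ranged from -0.001 to 0.049, and those in TPEN/Ctrl from -0.042 to 0.041 for Yme1l1, -0.037 to 0.043 for Dnm1l and -0.030 to 0.085 for Fis1.

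Tested against a 1.5-fold change, limma called 297 genes in ONC/Ctrl (2536 against no change), 47 in TPEN/ONC (1002) and 159 in TPEN/Ctrl (1814), of which 1, 0 and 1 were among the 79 other pathway genes. Voom called 1655 genes in TPEN/ONC. Without single libraries, 536 (without ONC replicate 1) to 1151 genes were called in TPEN/ONC, with 544 without ONC replicate 2, 563 without TPEN replicate 3, 599 without ONC replicate 3 and 641 without TPEN replicate 1, and 5 to 10 of the other pathway genes. With quantile normalization 5 of those were called. The exact permutation p ranged from 0.0357 to 0.514 for Oma1/Yme1l1, 0.0107 to 0.311 for Oma1/Opa1 and 0.0107 to 0.436 for Mfn2/Mfn1, without adjustment. The causes were not tested.

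With the replicate number as a block, 0 of the 10 genes were called in each comparison. In TPEN/ONC, 5 other pathway genes were called, and the calls of Lonp1, Spg7, Pink1 and Kif5b were lost. The calls of Kif5c and Taz in ONC/Ctrl were also lost. The exact permutation p of Mfn2/Mfn1 was 0.0278, before adjustment over the 5 ratios. This is the lowest p that permutation within replicate numbers can give. The replicate numbers carry no stated pairing. Libraries with the same number in different groups had correlations of -0.0623 to 0.0268 of their deviations from the group means. For libraries with different numbers, these were -0.0375 to 0.0511. Such values cannot exclude that libraries with the same number were prepared together.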
